A study of Mus musculus with 4 samples.

Results

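The receptor subunits for glutamate, GABA and glycine were examined across 4 arrays of mouse RNA, 1 array for each kind of cell. Members were the genes whose symbol in the array annotation is that of an AMPA, kainate, NMDA, delta or metabotropic glutamate receptor, a GABA-A, GABA-rho or GABA-B subunit, or a glycine receptor subunit. Of 18193 genes measured, 43 met this rule, and a further 9 RefSeq genes of the same families were not analysed here. The arrays held granule cells of the postnatal day 6 cerebellum, cells sorted on day 8 for an HB9-GFP reporter, sorted Sox1 neural stem cells, and undifferentiated embryonic stem (ES) cells. The reporter marks the motor neuron gene Mnx1. Per the labels, the ES cells were an HB9 reporter line grown with leukemia inhibitory factor on mouse embryonic fibroblasts treated with mitomycin C, and the HB9-GFP+ cells came from that line after Sonic hedgehog, retinoic acid and purmorphamine. The stated end of those factors lies after the stated sort, so the exposure is uncertain. How the Sox1 cells were obtained is not given in the sources used here.

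Glutamate opens the tetrameric AMPA, kainate and NMDA channels, which pass cations and excite the neuron, and it also acts on the metabotropic receptors, which signal through G proteins. GABA and glycine open pentameric chloride channels built from several subunit families, and GABA-B receptors are G protein coupled. Cerebellar granule neurons receive glutamate from mossy fibres and GABA from Golgi cells. Their receptor subunits are exchanged as they mature, with Gabra6, Gabrd and Grin2c known as late genes of this neuron.

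Signals are the deposited linear intensities. Where a gene had several probe sets, the one brightest on average over the 4 arrays stood for it. The low level was a signal of 78.8, which is 6.30 on the log2 scale and the average of the 4 array medians on that scale, and lower values were set to it. A gene counted as detected at a signal of 157.5 or more, which is 1 log2 unit higher. It was called higher or lower between 2 arrays when the brighter array detected it and the difference was at least 2 log2 units, or 4-fold. Where the dimmer array was at the low level the fold is given as a bound, and where it lay between the low level and detection no fold is given. With 1 array per kind of cell there was no replicate error and no test, so each difference is one between these arrays. Fewer cells of a type and less RNA per cell cannot be told apart in such samples.

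Markers fixed for this report showed mixed content on several arrays. Granule neuron markers were not limited to the granule array: 7 of 8 were detected in Sox1 cells, 5 in ES cells and 3 on the array labelled HB9-GFP+. Their summed signal was 73574.4 on the granule array, against 14165.2 for Sox1, 1880.7 for ES and 1295.9 for HB9-GFP+. On the granule array 8 of 8 granule neuron markers were detected. So were 7 of 7 markers of Bergmann glia and astrocytes, 6 of 6 of oligodendrocytes, 4 of 4 of Purkinje cells, 3 of 4 of inhibitory interneurons, 6 of 7 of fibroblasts and 5 of 6 of neural stem cells. Summed signals of the Bergmann glia and astrocyte markers were 22241.5 on the granule array and 525.0 to 867.3 on the other 3. Oligodendrocyte markers summed to 24843.6 on the granule array and 530.6 to 1283.2 on the others. Purkinje cell markers summed to 7589.8 there and 247.8 to 720.6 on the others. The part of such cells in the receptor signals of the granule array was not tested. Those of interneuron markers were 3085.4 on the granule array and 104.5 to 278.3 on the others. Gad1 alone gave 2507.3 of that granule sum. Slc32a1, at 259.7, and Slc6a5, at 183.2, were detected with no call, and Gad2, at 135.2, was undetected. The array labelled HB9-GFP+ had 0 of 7 motor neuron markers detected, against 0 of 7 on the granule array and 1 of 7 on each of the Sox1 and ES arrays. It had 6 of 6 pluripotency markers, as the ES array did, and 7 of 7 fibroblast markers against 1 of 7 on the ES array. On these lists its values run against its label. It also detected 3 of 6 oligodendrocyte markers, against 1 on the ES array. Of these, Olig1, at 619.7 against 61.9, and Olig2, at 320.6 against 0.9, were called higher than on the ES array. How they bear on the label was not tested. Fibroblast marker signals summed to 4838.6 on the granule array, 16498.8 on the array labelled HB9-GFP+, 942.3 in Sox1 cells and 658.1 in ES cells. Mnx1 itself read 15.9 on it and was dark on all 4 arrays. The Sox1 array had 6 of 6 neural stem markers, with Sox1 at 2262.1, and it also detected 5 of 6 pluripotency markers. No marker read 0, but the lowest signal of any probe set was 0.1 on each array, so this does not show presence. Some markers lay far under the low level, such as Nanog at 4.4 on the granule array.

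Receptor subunit transcripts were found mainly on the granule array. It detected 21 of the 43 receptor genes, against 2 on the array labelled HB9-GFP+, 9 in Sox1 cells and 3 in ES cells. These are 48.8% of the receptor genes on the granule array, 4.65% on the array labelled HB9-GFP+, 20.9% in Sox1 cells and 6.98% in ES cells. Of all genes, 52.5% were detected on the granule array, 51.3% on the array labelled HB9-GFP+, 51.6% in Sox1 cells and 51.7% in ES cells. Of the 23 receptor genes detected anywhere, 14 were detected on the granule array alone, and 2, Glra1 and Grin3b, on the Sox1 array alone. Gria3, Gria4, Gabrb2 and Glrb were detected on the granule and Sox1 arrays. Grm4 was detected on all arrays but the one labelled HB9-GFP+, where it read 153.9, just under the detection level, and Grik3 and Gabbr1 were detected on all 4.

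**Figure D1:**
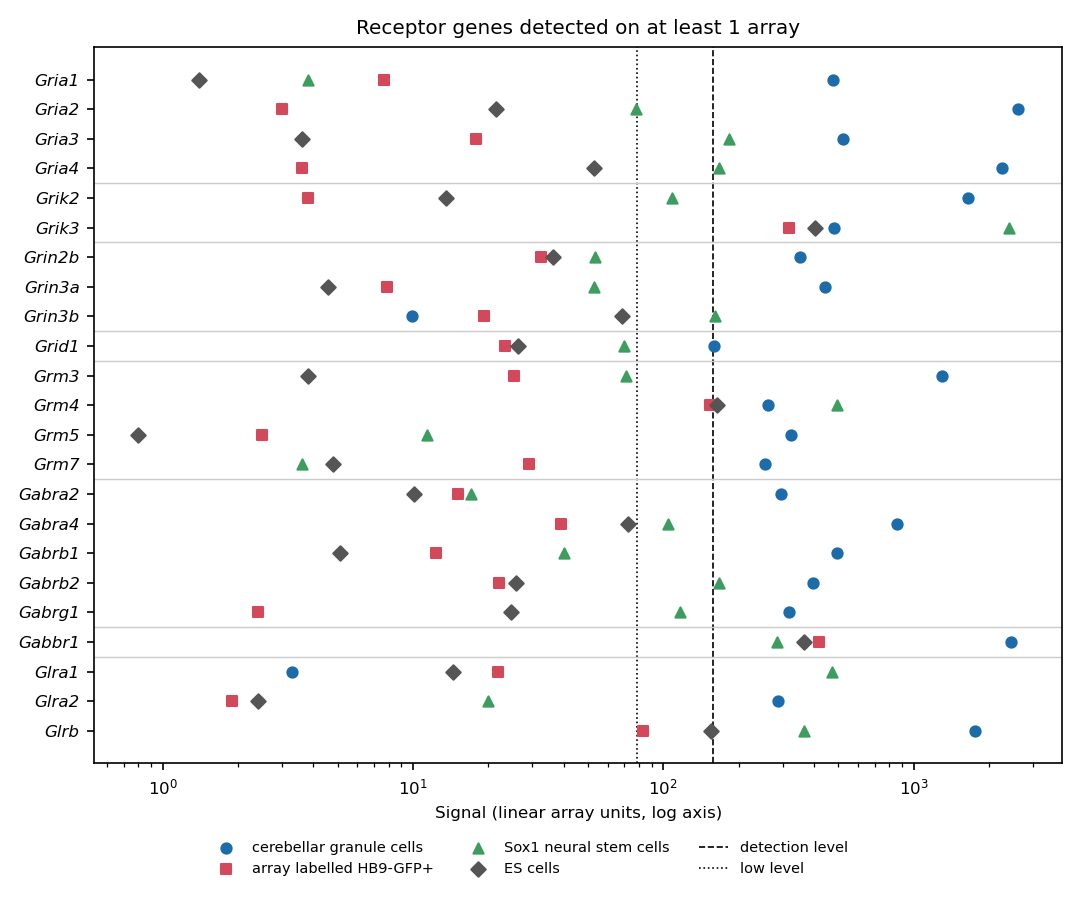
Signal of the 23 receptor genes detected on at least 1 array, with 1 point per array on a log axis; grey lines part the receptor classes. In 19 of the 23 genes the granule array gave the brightest point, and Grik3, Grin3b, Grm4 and Glra1 were brightest on the Sox1 array.

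The 4 AMPA receptor subunit genes were all detected on the granule array. Gria2, whose edited subunit makes the channel impermeable to calcium, read 2612.8 on the granule array, 3.0 on the array labelled HB9-GFP+, 78.0 in Sox1 cells and 21.4 in ES cells. On this probe set the other 3 arrays were at the low level, so the granule signal was at least 33.2-fold higher than each. Another Gria2 probe set gave a log2 difference of 4.71 from each. A further one read 881.1 on the granule array and 149.2 in Sox1 cells, a log2 difference of 2.56, smaller but still a call. Gria4, a subunit common in the developing brain, read 2251.2 on the granule array, 3.6 on the array labelled HB9-GFP+, 167.1 in Sox1 cells and 52.9 in ES cells. It was 13.5-fold higher on the granule array than on the Sox1 array, where it was just detected. Gria3 read 521.7 on the granule array, 17.8 on the array labelled HB9-GFP+, 183.1 in Sox1 cells and 3.6 in ES cells. It too was detected on both neural arrays, and their 2.85-fold difference fell short of 4-fold. The second Gria3 probe set was below detection on every array, at 107.9 on the granule array. Averaging both gave a log2 difference of 1.59 from ES against 2.73, below a call. Gria1, which can form calcium-permeable channels, read 474.7 on the granule array, 7.7 on the array labelled HB9-GFP+, 3.8 in Sox1 cells and 1.4 in ES cells. It was at least 6.03-fold higher on the granule array than on any other. Gria1 and Gria4 are also known as the AMPA receptor genes of Bergmann glia, whose markers were all detected on the granule array. The part of glial RNA in these signals was not tested.

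Among kainate receptor genes, Grik2 and Grik3 behaved differently. Grik2, a subunit that forms channels on its own, read 1642.3 on the granule array, 3.8 on the array labelled HB9-GFP+, 108.6 in Sox1 cells and 13.6 in ES cells. It was at least 20.9-fold higher on the granule array than on the ES array and than on the array labelled HB9-GFP+. Its second probe set read 172.6 on the granule array, only 1.13 log2 units above the low level, and averaging both gave 2.76 against 4.38. Grik3, a subunit with low sensitivity to glutamate, read 478.8 on the granule array, 318.5 on the array labelled HB9-GFP+, 2399.8 in Sox1 cells and 404.0 in ES cells. The granule array was 5.01-fold lower than the Sox1 array, and the Sox1 array was 5.94-fold higher than the ES array. The 3 arrays other than Sox1 lay between 318.5 and 478.8. The second Grik3 probe set was dark on all 4 arrays, between 4.3 and 6.1, so the pattern rests on 1 probe set. Grik1, Grik4 and Grik5 were not detected on any array.

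Of 6 NMDA receptor genes 3 were dark on every array, and the 2 detected on the granule array were genes of early postnatal neurons. Grin2b, the NMDA subunit of young neurons, read 350.3 on the granule array, 32.5 on the array labelled HB9-GFP+, 53.2 in Sox1 cells and 36.3 in ES cells. It was at least 4.45-fold higher on the granule array, close to the 4-fold limit. Its 3 other probe sets gave no call, and averaging over the 4 gave a log2 difference of 0.03. Grin3a, a subunit that lowers calcium entry, read 442.9 on the granule array, 7.9 on the array labelled HB9-GFP+, 52.9 in Sox1 cells and 4.6 in ES cells, and was at least 5.62-fold higher on the granule array than on the other 3. Averaged with its 2 other probe sets, the log2 difference was 1.17, below a call. Grin3b read 9.9 on the granule array, 19.2 on the array labelled HB9-GFP+, 161.3 in Sox1 cells and 68.3 in ES cells, barely past detection. Grin2a, Grin2c and Grin2d were undetected throughout. Grin2c, the mature granule neuron subunit, read 5.2 on the granule array. Grid1, a delta receptor gene whose product binds cerebellins, read 160.2 on the granule array, 23.3 on the array labelled HB9-GFP+, 70.0 in Sox1 cells and 26.4 in ES cells, just past detection and with no call.

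Metabotropic genes of 2 signalling groups were high on the granule array. Grm3, a receptor that lowers cyclic AMP and is found in neurons and astrocytes, read 1302.3 on the granule array, 25.4 on the array labelled HB9-GFP+, 71.2 in Sox1 cells and 3.8 in ES cells. Its granule signal was at least 16.5-fold higher than the other 3. Grm5, which couples to calcium release, read 323.1 on the granule array, 2.5 on the array labelled HB9-GFP+, 11.4 in Sox1 cells and 0.8 in ES cells, a difference of at least 4.10-fold. Its second probe set was dark on all 4 arrays, at 85.7 on the granule array. Grm7, a presynaptic receptor, read 255.3 on the granule array, 29.0 on the array labelled HB9-GFP+, 3.6 in Sox1 cells and 4.8 in ES cells, short of a call at 3.24-fold or more. Grm4, the presynaptic receptor of parallel fibres, read 262.4 on the granule array, 153.9 on the array labelled HB9-GFP+, 492.6 in Sox1 cells and 163.8 in ES cells. No call was made for it between any arrays. Grm2, a receptor of Golgi cells, and Grm8 were undetected.

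Of 15 GABA-A and GABA-rho genes, 5 were detected on the granule array and 10 on no array. Gabra4, an alpha subunit of receptors outside synapses, read 855.9 on the granule array, 39.2 on the array labelled HB9-GFP+, 104.7 in Sox1 cells and 72.0 in ES cells. It was at least 10.9-fold higher on the granule array than on the ES array. Gabrb1 read 494.7 on the granule array, 12.4 on the array labelled HB9-GFP+, 40.3 in Sox1 cells and 5.1 in ES cells, at least 6.28-fold higher on the granule array than on the other 3. Its 3 other probe sets were dark on the granule array, at 153.3, 119.1 and 3.5, and averaging over the 4 gave a log2 difference of 0.00. Gabrb2, a beta subunit of mature granule neurons, read 397.9 on the granule array, 22.1 on the array labelled HB9-GFP+, 167.0 in Sox1 cells and 25.7 in ES cells. It was detected on both neural arrays and differed 2.38-fold between them, which is no call. It was at least 5.05-fold higher on the granule array than on the ES array and than on the array labelled HB9-GFP+. These calls rest on 1 probe set. Its other probe sets gave log2 differences of -0.11 to 1.82 from ES, and averaging over all gave 1.34, below a call. Gabrg1 read 317.6 on the granule array, 2.4 on the array labelled HB9-GFP+, 116.8 in Sox1 cells and 24.7 in ES cells. It was at least 4.03-fold higher on the granule array than on the ES array, at the edge of a call. Its second probe set was dark on the granule array, at 49.8. Gabra2 read 296.4 on the granule array, 15.2 on the array labelled HB9-GFP+, 17.0 in Sox1 cells and 10.1 in ES cells. The granule signal was at least 3.76-fold higher and so just short of a call. Its other probe sets were dark on the granule array, between 9.1 and 91.7. Gabra2 and Gabrg1 are also known genes of Bergmann glia, and the part of such cells in their signals was not tested. The late granule genes Gabra6 and Gabrd were undetected, with granule signals of 79.9 and 20.3. Their other probe sets read 35.2 and 20.7 there.

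Gabbr1, the ligand-binding GABA-B subunit, read 2451.6 on the granule array, 417.3 on the array labelled HB9-GFP+, 285.5 in Sox1 cells and 363.8 in ES cells. It was detected on every array, and 6.74-fold higher on the granule array than on the ES array. Its next probe set read 1608.7 on the granule array, 742.3 on the array labelled HB9-GFP+, 693.7 in Sox1 cells and 210.9 in ES cells, so the calls against HB9-GFP+ and Sox1 rest on 1 probe set. Among glycine receptor genes, Glrb, the beta subunit that anchors the receptor to gephyrin, read 1753.7 on the granule array, 82.9 on the array labelled HB9-GFP+, 364.3 in Sox1 cells and 154.8 in ES cells. It was 4.81-fold higher on the granule array than on the Sox1 array. The alpha subunits differed in place. Glra2, the fetal alpha subunit, read 286.7 on the granule array, 1.9 on the array labelled HB9-GFP+, 20.0 in Sox1 cells and 2.4 in ES cells, short of a call at 3.64-fold or more. Glra1, the adult alpha subunit of spinal cord and brain stem, read 3.3 on the granule array, 21.9 on the array labelled HB9-GFP+, 473.8 in Sox1 cells and 14.4 in ES cells, and was at least 6.02-fold higher on the Sox1 array than on each of the others. Its second probe set was dark on all 4 arrays, between 6.5 and 46.4. Glra3 and Glra4 were undetected.

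The 20 genes detected on no array were Gabra3, Gabra5, Gabra6, Gabrd, Gabre, Gabrg3, Gabrp, Gabrq, Gabrr1, Gabrr2, Glra3, Glra4, Grik1, Grik4, Grik5, Grin2a, Grin2c, Grin2d, Grm2 and Grm8. Their signals lay between 0.4 and 151.6. They made up 46.5% of the receptor genes, against 36.1% of all genes. The nearest to detection were Grin2d on the Sox1 array, at 151.6, Gabrp on the ES array, at 143.1, and Gabra3 on the granule array, at 138.7. A dark probe set does not show that a transcript was missing.

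Counted by comparison, the granule array stood higher in 15 receptor genes than the ES array, in 12 than the Sox1 array and in 15 than the array labelled HB9-GFP+. These were 34.9%, 27.9% and 34.9% of the 43, against 7.15%, 3.89% and 7.72% of all genes. No receptor gene was lower on the granule array than on the ES array or the array labelled HB9-GFP+, where 5.09% and 5.63% of all genes were, and 2 were lower than on the Sox1 array (2.14% of all genes). These 2 were Grik3 and Glra1. The 3 comparisons share the granule array and are not independent. The median log2 difference of the 43 genes was 0.25 against ES, 0.07 against Sox1 and 0.64 against the array labelled HB9-GFP+, and 0.00 over all genes in each. It depended on the treatment of low signals: on the log2(signal + 16) scale the medians were 2.06, 1.18 and 1.96 for the 43 genes and -0.14, -0.08 and -0.02 for all genes. With a gene's probe sets averaged they were 0.00 in all 3 comparisons, for the 43 and for all genes. With a gene's probe sets averaged in place of the brightest, the calls were 8, 8 and 7, or 18.6%, 18.6% and 16.3% of the receptor genes, against 4.29%, 2.40% and 4.75% of all genes.

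Between the other arrays there were few calls. The array labelled HB9-GFP+ and the ES array differed in 0 receptor genes in either direction, where 1.15% of all genes were higher and 0.857% lower. Against the Sox1 array, the array labelled HB9-GFP+ had 0 higher (3.30% of all genes) and 3 lower (4.08%), which were Grik3, Glra1 and Glrb. The Sox1 array had 2 receptor genes higher than the ES array (3.70% of all genes), Grik3 and Glra1, and 0 lower (3.09%). These shares are near those of all genes.

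**Figure D2:**
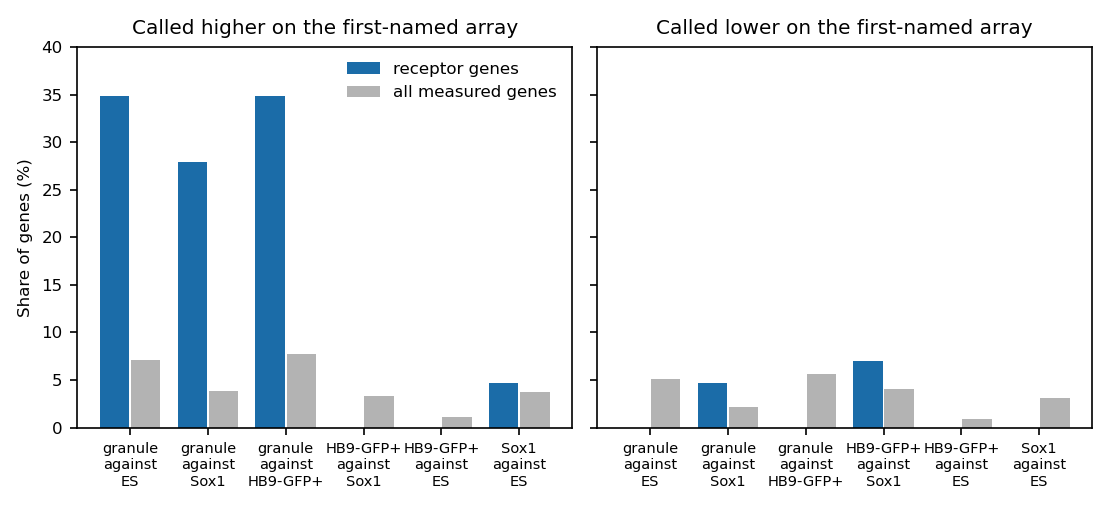
Share of the 43 receptor genes (blue) and of all 18193 measured genes (grey) called higher or lower in each of 6 comparisons, in percent. The 3 comparisons that start from the granule array reach 34.9%, 27.9% and 34.9% for receptor genes, and no other bar of receptor genes passes 6.98%.

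Called higher than each of the other 3 arrays were 12 receptor genes on the granule array, 2.95% of all genes being so, and 2 on the Sox1 array, against 0.643%. The 12 were Gria1, Gria2, Gria4, Grik2, Grin2b, Grin3a, Grm3, Grm5, Gabra4, Gabrb1, Gabbr1 and Glrb. Without the array labelled HB9-GFP+, the counts were again 12 and 2, with 3.21% and 0.720% of all genes. Of the 15 genes higher on the granule than the ES array, 14 had more than 1 probe set. In 5 of these 14, Gria2, Gria4, Gabra4, Gabbr1 and Glrb, another probe set of the gene was called the same way. In the other 9 no other probe set was.

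**Figure D3:**
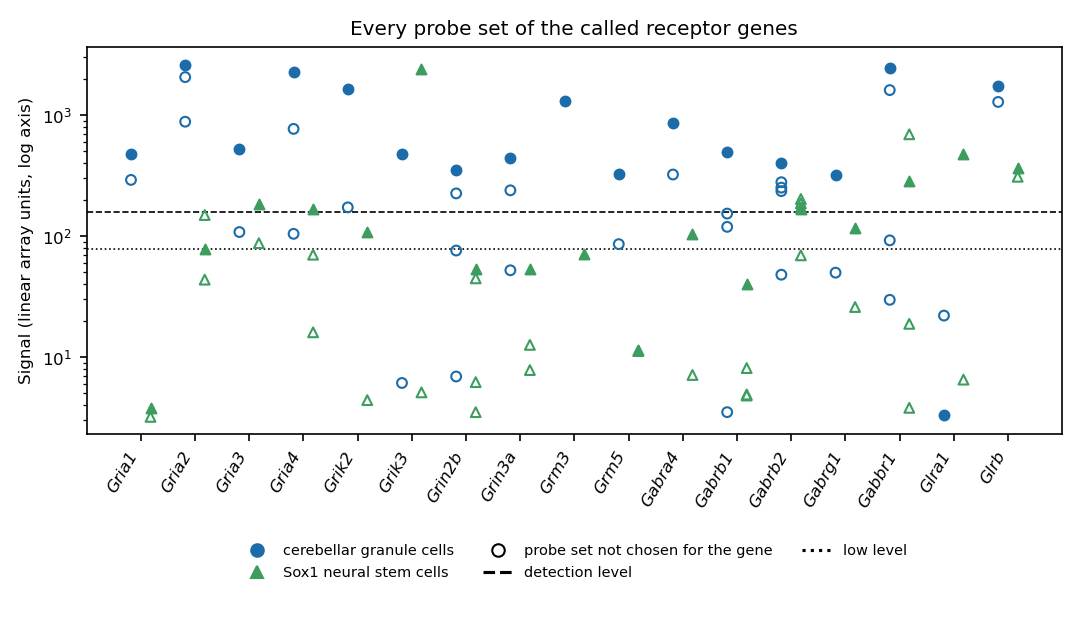
Signal of every probe set of the 17 receptor genes called in at least 1 comparison, on the granule array (circles) and the Sox1 array (triangles), on a log axis; filled points are the probe sets that stand for the gene. The probe sets of Gria2 and Glrb lay above detection throughout on the granule array, while the filled Sox1 points of Grik3 and Glra1 have a dark partner.

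Some receptor genes are neighbours in the genome, and neighbours did not all go the same way. In the RefSeq order of protein-coding genes, Gria2 and Glrb lie next to each other on chromosome 3, and both were higher on the granule array than on the other 3. On chromosome 5, Gabrg1 and Gabra2 are adjacent, as are Gabra4 and Gabrb1, with 1 other gene between the pairs. All 4 were detected on the granule array. For Gabrg1, Gabra2 and Gabrb1 this rests on 1 probe set each, as their other probe sets were below detection there. Of the 9 measured GABA-A and GABA-rho genes with such neighbours on chromosomes 11, 7, X and 4, the granule array detected 1, Gabrb2. Glra1 and Gria1, on chromosome 11 with 1 other gene between them, went opposite ways: Gria1 was called higher on the granule array than on the other 3, and Glra1 was called higher on the Sox1 array than on the other 3. These are descriptions and were not tested.

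**Figure D4:**
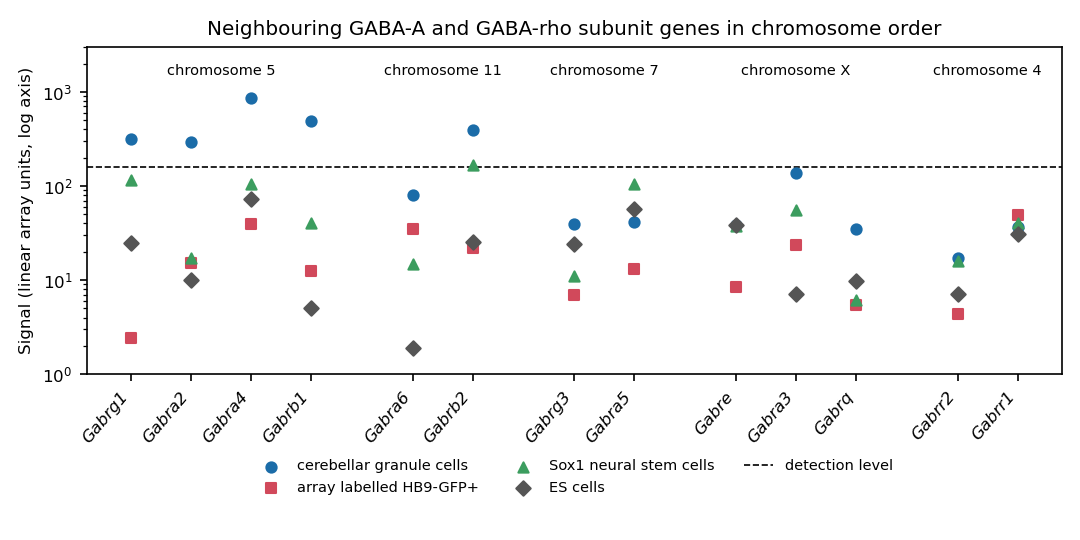
Signal of 13 GABA-A and GABA-rho genes in the order in which they lie on each chromosome, with 1 point per array on a log axis. The 4 granule points of the chromosome 5 genes and that of Gabrb2 lie above the dashed detection level.

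The promoters of the 2 adjacent pairs and of Grik3, called higher on the Sox1 array than on the other 3 as Glra1 was, are shown as the 250 bases before the RefSeq start in GRCm38.p6, read along the gene's strand. Gria2 is at chr3:80802836-80803085 and Glrb at chr3:80913661-80913910, both on the minus strand. Gabra4 is at chr5:71658309-71658558 on the minus strand, Gabrb1 at chr5:71657671-71657920 on the plus strand and Grik3 at chr4:125490446-125490695 on the plus strand. Gabrb1 had 2 RefSeq windows, of which the first listed is shown. Capitals mark the GC box GGGCGG, searched on both strands.
Gria2: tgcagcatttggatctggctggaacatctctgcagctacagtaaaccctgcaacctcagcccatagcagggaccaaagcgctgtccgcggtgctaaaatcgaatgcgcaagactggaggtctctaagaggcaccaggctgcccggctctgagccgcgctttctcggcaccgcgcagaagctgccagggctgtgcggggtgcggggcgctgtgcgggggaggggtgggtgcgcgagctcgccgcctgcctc
Glrb: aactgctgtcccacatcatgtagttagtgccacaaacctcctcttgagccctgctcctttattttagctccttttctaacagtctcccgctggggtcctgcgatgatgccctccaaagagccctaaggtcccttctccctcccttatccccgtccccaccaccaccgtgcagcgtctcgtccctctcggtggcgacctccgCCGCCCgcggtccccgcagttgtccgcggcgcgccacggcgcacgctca
Gabra4: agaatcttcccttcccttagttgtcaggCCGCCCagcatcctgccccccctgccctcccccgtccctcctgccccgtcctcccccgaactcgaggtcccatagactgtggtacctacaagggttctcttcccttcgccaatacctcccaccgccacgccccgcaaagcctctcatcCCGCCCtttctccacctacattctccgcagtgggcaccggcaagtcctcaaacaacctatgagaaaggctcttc
Gabrb1: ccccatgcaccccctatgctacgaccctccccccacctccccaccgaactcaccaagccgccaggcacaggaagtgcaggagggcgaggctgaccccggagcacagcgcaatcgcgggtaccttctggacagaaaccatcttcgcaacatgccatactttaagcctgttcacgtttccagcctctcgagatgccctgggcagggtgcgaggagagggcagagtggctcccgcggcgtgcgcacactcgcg
Grik3: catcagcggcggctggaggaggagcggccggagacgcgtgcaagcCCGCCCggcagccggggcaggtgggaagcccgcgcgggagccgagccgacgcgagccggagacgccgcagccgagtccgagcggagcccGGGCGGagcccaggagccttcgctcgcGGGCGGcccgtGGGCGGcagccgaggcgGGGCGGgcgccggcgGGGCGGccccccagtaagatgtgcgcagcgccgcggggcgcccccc

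Gabra4 and Gabrb1 lie on opposite strands. With the Gabrb1 start used here, the starts are 387 bases apart. They are placed so that the first bases of the 2 genes overlap and each window shown lies within the other gene. The second Gabrb1 window was not compared. The starts of Gria2 and Glrb are 110825 bases apart. The GC box occurred 6 times in the Grik3 window, 2 times in that of Gabra4, once in that of Glrb and not in those of Gria2 and Gabrb1. GC content was 82.0% for Grik3 and 61.2% to 64.8% for the other 4. RefSeq windows were found for 32 of the 43 genes. Of their 39 windows 51.3% held the box, against 32.7% of all 32851 windows, with median GC contents of 62.4% for detected receptor genes, 56.4% for undetected ones and 52.4% for all windows. A match is a description of letters, and its absence says nothing of any factor.

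Genes that work with these receptors were also examined, by lists fixed for this report. Between the granule and ES arrays 7.15% of all genes were called higher and 5.09% lower, and the counts of each list stand against those shares. Of 16 measured genes of AMPA and kainate auxiliary subunits, 7 were higher on the granule than the ES array and 0 lower. Cacng2, or stargazin, which brings AMPA receptors to the membrane, read 1314.3 on the granule array against 45.4 on the ES array. Neto2, a kainate receptor partner, read 1733.5 against 82.3, and Cacng4 read 793.9 against 5.3. The others named by the rule were Olfm1, Gsg1l and Cacng5. Neto2 and Olfm1 were already detected on the Sox1 array, at 528.0 and 1386.3.

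Of 10 genes of inhibitory scaffolds and organisers, 4 were higher on the granule than the ES array and 0 lower. Gphn, the gephyrin scaffold that binds Glrb, read 1349.0 against 193.4, and Lhfpl4, which gathers GABA-A receptors at synapses, 664.8 against 21.0. The others were Nlgn2 and Plcl1, and Trak2 was called against the Sox1 array and the array labelled HB9-GFP+. Among 27 excitatory scaffold and organiser genes 4 were higher and 0 lower, with 7.15% and 5.09% of all genes. Homer2 read 2610.0 on the granule array, 4.71 log2 units higher than in ES cells. Dlg2 read 895.1 against 7.7, Lrrtm2 869.4 against 41.0, and Cbln1, the cerebellin of granule neurons, 6299.0 against 243.7. Dlgap1, Grip1, Lrrtm1 and Nptx2 were called in other comparisons.

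Genes of transmitter release, uptake and synthesis were called for both transmitters. The counts below again stand against 7.15% of all genes higher and 5.09% lower on the granule than the ES array. Of 7 glutamate genes 3 were higher and 0 lower on the granule than the ES array. Slc17a6, the vesicular glutamate transporter of young granule neurons, read 1972.2 on the granule array against 5.9 on the ES array, while Slc17a7, the form of mature ones, was undetected, with 63.2 on the granule array. The glial uptake transporters Slc1a3 and Slc1a2 read 5027.4 and 1358.7 on the granule array, against 295.5 and 60.5 on the ES array. Of 8 GABA and glycine genes 2 were higher and 0 lower, the GABA-synthesising enzyme gene Gad1 (2507.3 against 33.1) and the GABA-degrading Abat (2143.7 against 192.7). Gad1 marks inhibitory neurons, Slc1a3 and Slc1a2 are glial, and the part of those cells in these signals was not tested. Srr, which makes the NMDA co-agonist D-serine, was the 1 of 6 NMDA modulator genes called higher (886.5 against 114.1). Of 6 chloride transporter genes 1 was lower, Slc12a7, at 80.5 against 1073.5. Slc12a2, which loads chloride into young neurons, read 4761.2 on the granule array and 2814.7 in ES cells, and Slc12a5, which extrudes it, 280.5 and 154.4. Neither was called. No call was made among 3 RNA editing enzyme genes, and Adarb1, the enzyme of the Gria2 site, read 163.5 on the granule array and 44.8 in ES cells.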

How the data were processed

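RNA from 4 kinds of mouse cell was hybridised as biotinylated cRNA to Affymetrix arrays, 1 array each, per the labels' protocols. The deposited values are linear intensities for 45101 probe sets. GCRMA is named in the submitters' processing notes, yet each array's mean after trimming 2% at each end was 500.0, so the step that made the intensities is uncertain and equal averages are forced. No detection flags were used.

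Symbols came from the platform annotation, in which 34945 probe sets other than controls had 1 symbol. All 43 receptor genes matched a RefSeq gene identifier of GRCm38.p6. They had 88 probe sets, and 16 genes had only 1. The gene's probe set was that with the highest arithmetic mean over the arrays. Levels, calls and bounds are as defined in the report, and the calculation of calls was tested on simulated data, which bears on the arithmetic and not on these arrays. The named genes are all 43 members, and for partner lists up to 6 called genes in order of the difference between the granule and ES arrays. The members and lists were chosen with earlier results of these data known. Shares over all genes were computed across 18193 genes. In all, 9 alternative settings were planned and 2 were added after seeing the data. No p-value was computed, and the number of arrays limits the precision. Python 3.11.15, numpy 2.4.6, pandas 2.3.3 and matplotlib 3.10.9 were used.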

Additional observations from a re-analysis of the deposited data

How the results depend on the processing

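Of 490 differences recomputed for called receptor genes under 10 alternative settings, 387 kept the call, 103 lost it and 0 reversed. Some of those lost fell to 0 where both arrays were at the low level. At 1 log2 unit, or with a low level 1 log2 unit lower, no call could be lost. Each of these kept all 49, so their part of the total says nothing of stability. The size of 3 log2 units reused the same differences and removed 31 calls. The calls of Gria2, Gria4, Grik2, Grm3, Gabra4 and Glrb against the ES array and against the array labelled HB9-GFP+ held in all 10, and those of the first 5 of these against the Sox1 array. With the mean over probe sets, genes higher on the granule array numbered 8 against ES and 7 against HB9-GFP+, the Sox1 array had 1 higher than ES, detection was 0, 3 and 1 on the HB9-GFP+, Sox1 and ES arrays, and 7 and 0 genes were higher than all others on the granule and Sox1 arrays. With low and detection levels 1 log2 unit higher, the granule array had 7 higher in each of its 3 comparisons and the Sox1 array 1 higher than ES, with 4 detected, and 7 and 1 higher than all others. With a low level 1 log2 unit lower, or with log2(signal + 16), the Sox1 array had 4 higher than ES. At 1 log2 unit in place of 2, 19 were higher on the granule than the Sox1 array, 8 on the Sox1 than the ES array and 19 on the granule array than all others. At 3 log2 units these became 6 in each granule comparison, 0 for Sox1 against ES, and 5 and 0 against all others.

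Centring on 8 reference genes without Hprt raised granule differences by 0.48 against ES, 0.44 against Sox1 and 0.60 against HB9-GFP+, and left 1 gene, Glra1, higher on the Sox1 array than on all others, since Grik3 came to -1.88. It gave 74.6%, 79.2% and 77.7% higher among the calls of all genes in these comparisons, against 58.4%, 64.5% and 57.8%, and quantile normalization gave 67.9% against 57.4% for HB9-GFP+ against ES. Under log2(signal + 16) the median of all genes moved to -0.14 between the granule and ES arrays. Choosing probe sets by their mean log2, added after seeing the data, ended the calls of Grm5 (0.12), Gria1 (1.89), and Gabrb2 (1.67), and that of Gabbr1 against Sox1 (1.21) and against HB9-GFP+ (1.12). The causes were not tested. Hybridisation controls were dimmer on the granule array than on the others, by a mean log2 difference of -0.57 to -0.68. No paired analysis was possible because each group had 1 array.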
